A study of Mus musculus with 6 samples.

Results

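The 9 genes described here encode enzymes that build triglyceride in the liver, and a cofactor of the lipase that breaks it down: Gpam, Gpat3, Gpat4, Lpin1, Lpin2, Dgat1, Dgat2, Mogat1 and Abhd5. They were taken as all probe sets (groups of short probes that read 1 transcript sequence) annotated to exactly 1 of these symbols, which gave 17 of the 45141 probe sets on the array and 9 of the 17097 genes with a named probe set. Each gene is represented by the probe set with the greatest mean signal over the 6 arrays, called its main probe set from here on.

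Livers came from C57BL/6 mice that were either wild type or lacked Nrg4, which encodes the secreted growth factor neuregulin 4. Both genotypes ate the same high-fat diet for 8 weeks, begun at 3 months of age, and were harvested in the fed state. Each genotype is represented by 3 Affymetrix arrays, and each array by a separate pool of hepatic RNA. How many mice made up a pool is not stated, and the p-values therefore measure the spread between pools. The kind of deletion, and whether wild-type mice were littermates, are not stated either.

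Triglyceride is made in hepatocytes mainly by the glycerol 3-phosphate pathway. Glycerol 3-phosphate acyltransferases (GPATs) add the first fatty acid, acylglycerophosphate acyltransferases (AGPATs) add the next and give phosphatidic acid, lipins remove its phosphate to give diacylglycerol, and diacylglycerol acyltransferases (DGATs) add the last fatty acid. Monoacylglycerol acyltransferases (MOGATs) reach diacylglycerol by a separate route. Diacylglycerol also feeds the synthesis of phosphatidylcholine and phosphatidylethanolamine, so the lipin step stands at a branch between stored fat and membrane lipid.

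The arrays carried the genotypes on their labels. Nrg4 read 4.94, 4.79 and 4.77 in wild type and 2.56, 2.43 and 2.64 in the knockout on the log2 scale, and fell by 2.30 (SE 0.096, limma adjusted p = 4.76e-05). Hepatocyte genes were bright in every array, with Alb between 12.30 and 12.41, while Pck1 lay under the limit for dim signal (log2 2.66) at 1.60 to 2.00. The mean log2 value of the 12 hepatocyte markers was 10.28 to 10.35 in wild type and 10.27 to 10.41 in the knockout. Other values did move with genotype. The mean of 3 control probe sets for 18S ribosomal RNA was 7.83 to 8.19 in wild type and 6.01 to 6.68 in the knockout. The mean of 10 endothelial markers was 5.40 to 5.72 against 5.77 to 6.07. Of these 10 genes, 9 had a higher knockout value, beside 63.4% of all genes tested. Lyve1 (1.29), Ptprb (0.49) and Pecam1 (0.33) were higher without overlap. The other endothelial markers overlapped, among them Stab1 (0.12), Fcgr2b (0.068) and Clec4g (-0.089). The mean of 10 stellate cell and matrix markers was 5.07 to 5.26 against 5.30 to 5.50. Knockout values were higher for 8 of 9 genes tested, beside 63.4% of all genes tested. Col3a1 (0.80), Dcn (0.40) and Lrat (0.39) were higher without overlap. The rest overlapped, among them Col1a1 (0.12), Des (0.10) and Acta2 (-0.018). The mean of 12 macrophage markers was 5.47 to 5.68 in wild type, 5.57 in knockout replicate 1 and 6.12 and 6.19 in knockout replicates 2 and 3. In bulk tissue, a changed number of cells of a type and a changed amount of RNA per cell cannot be told apart.

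No member passed the test across all genes. At a limma adjusted p under 0.05 the count was 0 of 9 members, where 0.0401% of the 12466 genes tested passed. At an unadjusted limma p under 0.05, 1 member was higher in the knockout (Gpat3) and 0 were lower, beside 7.36% of all genes tested that were higher and 2.18% that were lower. Values of the genotypes did not overlap, with the knockout higher, for 2 of 9 main probe sets (Gpat3 and Dgat2), and for 0 with the knockout lower; over all genes tested these shares were 11.7% and 3.92%. The median log2 change of the 9 members was 0.14, and that of all genes tested was 0.045. The knockout mean was higher for 5 members and lower for 4, where 63.4% of all genes tested were higher. All 9 members passed the limit for dim signal with their main probe set.

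**Figure D1:**
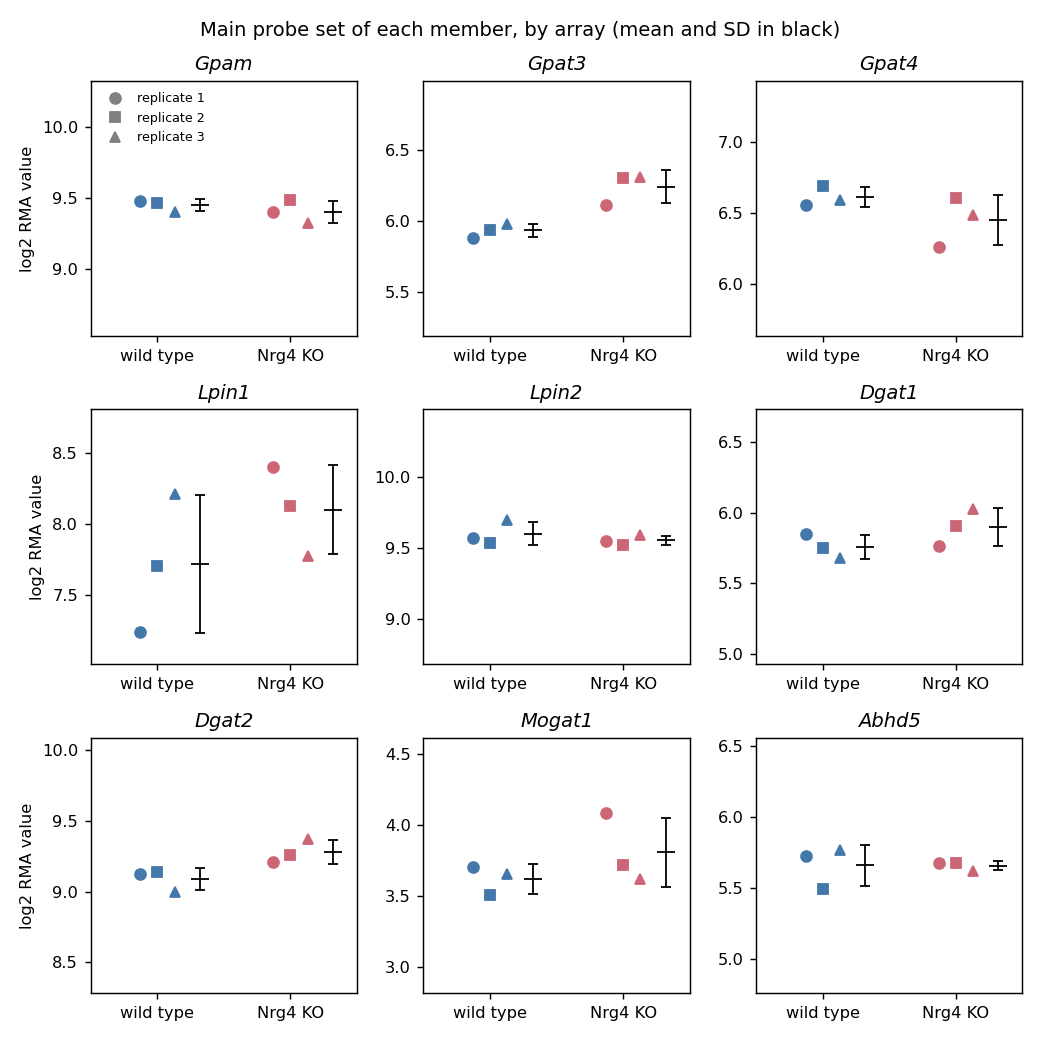
Log2 RMA value of the main probe set of each member in the 3 wild-type (blue) and 3 Nrg4 knockout (red) arrays. The vertical axis has the same span of 1.8 log2 units in each panel. Marker shape gives the replicate number, which the labels do not say pairs the genotypes. Black bars give mean and SD. Gpat3 and Dgat2 separate the genotypes without overlap, and Lpin1 has the widest spread within each genotype.

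None of the 3 acyltransferases that start the pathway passed the test. Gpat3, an enzyme of the endoplasmic reticulum first described in fat cells, had the smallest p of the members. Its log2 values were 5.88, 5.94 and 5.98 in wild type and 6.11, 6.31 and 6.32 in the knockout, so the lowest knockout array lay above the highest wild-type array. The means were 5.94 ± 0.049 and 6.25 ± 0.11 (SD, n = 3 arrays each). The difference was 0.31 (SE 0.092, 95% interval 0.10 to 0.52), or 1.24-fold higher, and did not pass over all genes (limma adjusted p = 0.35). Gpat3 had a single probe set, so no other probe set could be set beside it. The endothelial and the stellate cell and matrix means were also above every wild-type array in all 3 knockout arrays, and the macrophage mean in knockout replicates 2 and 3. By gene, 3 of 10 endothelial and 3 of 9 stellate cell and matrix markers were higher without overlap. The largest changes in these 2 lists were those of Lyve1 (1.29) and Col3a1 (0.80). The part of other cell types in the Gpat3 difference was not tested.

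Gpat4, the closest relative of Gpat3 and also an enzyme of the endoplasmic reticulum, read 6.55, 6.69 and 6.59 in wild type and 6.26, 6.60 and 6.49 in the knockout. The genotypes overlapped, and knockout replicate 1 was the lowest array. The change was -0.16 (SE 0.11, 95% interval -0.41 to 0.084, limma adjusted p = 0.665); it was -0.067 without knockout replicate 1 and -0.035 with the mean of its probe sets. Knockout replicate 1 also had the lowest difference between 5' and 3' control probe sets (the mean for Actb and Gapdh, a sign of RNA integrity), at -1.31 against -0.96 to -0.65 in the other 5 arrays; the part of RNA integrity in this value was not tested. A further Gpat4 probe set was under the limit for dim signal, at 2.06 to 2.40, and 3 more probe sets were left out because they are annotated to Atad3a as well.

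Gpam, the GPAT of the mitochondrial outer membrane and a target of the lipogenic factor SREBP-1c, overlapped between genotypes. It read 9.48, 9.47 and 9.40 in wild type and 9.40, 9.48 and 9.32 in the knockout. Its change was -0.049 (SE 0.085, 95% interval -0.24 to 0.15, limma adjusted p = 0.885), with knockout replicate 3 the lowest array; it was -0.0097 without that array and -0.090 without knockout replicate 2. The second Gpam probe set was close to the limit, between 2.71 and 3.29, with a change of 0.11 (SE 0.15).

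Gpat3 and Gpat4 catalyse the same step, so their difference within each array was compared between genotypes. Gpat3 minus Gpat4 was -0.67, -0.75 and -0.61 in wild type and -0.15, -0.29 and -0.17 in the knockout. The balance thus stood 0.47 log2 units further toward Gpat3 in the knockout, with no overlap between the arrays of the genotypes. The exact permutation test (two-sided) gave p = 0.1, the smallest that 3 against 3 arrays allow, and 0.4 after Benjamini-Hochberg adjustment over the 4 pairs of members compared. This is a difference in change and does not say which transcript is the more abundant, since signals of separate probe sets are not on a common scale. Gpam minus Gpat4 differed by 0.11 between genotypes, with overlapping arrays (exact permutation p = 0.4), and by 0.018 without knockout replicate 1.

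The lipins gave the widest contrasts, both between arrays and between probe sets of a single gene. Lpin1, a phosphatidate phosphatase that also acts as a transcriptional coactivator, read 7.24, 7.71 and 8.21 in wild type and 8.40, 8.12 and 7.77 in the knockout. The means were 7.72 ± 0.49 and 8.10 ± 0.31 (SD, n = 3 arrays each). The lowest and the highest wild-type pool differed by 0.97 log2 units, and the knockout pools by 0.63. Its pooled SD within genotype, 0.41, was above that of 98.9% of the genes tested, whose median was 0.13. The mean was 1.30-fold higher in the knockout, but the genotypes overlapped and the change of 0.38 (SE 0.24, 95% interval -0.17 to 0.93) did not pass (limma adjusted p = 0.647).

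The second Lpin1 probe set read 7.20, 7.66 and 8.12 in wild type and 8.41, 8.005 and 7.90 in the knockout. It ranked the 6 arrays in the same order, from wild-type replicate 1 at the bottom to knockout replicate 1 at the top. Its change was 0.44 (SE 0.22, limma adjusted p = 0.564 over 19018 probe sets). The spread among pools was thus seen with both probe sets. The value for the main probe set rested on single pools: it was 0.14 without wild-type replicate 1, 0.63 without wild-type replicate 3 and 0.23 without knockout replicate 1. That knockout array had the lowest 5' minus 3' control value, -1.31, and the part of RNA integrity was not tested.

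Lpin2, the lipin with a well known role in liver, had 3 probe sets above the limit, and they disagreed. The main probe set, 1452836_PM_at, read 9.57, 9.54 and 9.70 in wild type and 9.55, 9.53 and 9.59 in the knockout. Its change was -0.046 (SE 0.085, limma adjusted p = 0.894), with overlapping genotypes. Probe set 1452837_PM_at read 8.25, 8.19 and 8.19 in wild type and 7.83, 7.93 and 7.60 in the knockout. All 3 knockout arrays lay below all 3 wild-type arrays, and the signal was 1.34-fold lower (log2 change -0.43, SE 0.11). Probe set 1460290_PM_at read 6.50, 6.42 and 6.51 in wild type and 6.01, 6.18 and 5.99 in the knockout, again without overlap, with a log2 change of -0.42 (SE 0.094).

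In the fit of every named probe set above the limit, these Lpin2 probe sets ranked 229 and 143 of 19018 by p. Their limma adjusted p-values were 0.263 and 0.229, so neither passed, where 0.0368% of probe sets did. Of the 16 member probe sets above the limit, 2 were lower in the knockout without overlap (both of Lpin2) and 2 were higher (Gpat3 and the main one of Dgat2). The shares over all probe sets were 5.02% for lower and 10.6% for higher. Within each array, 1452837_PM_at minus the main probe set was -1.32, -1.34 and -1.51 in wild type and -1.73, -1.60 and -1.99 in the knockout. For 1460290_PM_at the same quantity was -3.07, -3.12 and -3.18 in wild type and -3.54, -3.34 and -3.60 in the knockout.

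The platform annotation assigns 1452836_PM_at and 1452837_PM_at to the same sequence record and 1460290_PM_at to another; which exon or transcript end each reads was not analysed here. Both lower probe sets had their lowest signal in knockout replicate 3, whose 5' minus 3' control value of -0.65 was the highest of the 6 arrays; the part of RNA integrity was not tested. With the mean of all probe sets in place of the brightest, the Lpin2 change was -0.30 (limma adjusted p = 0.308), against -0.046 by the main probe set. It still did not pass, and its size depended on the choice of probe set. Lpin1 minus Lpin2, by main probe sets, was 0.43 higher in the knockout with overlapping arrays (exact permutation p = 0.2, adjusted over 4 pairs 0.4). By main probe sets it was 0.20 without wild-type replicate 1 and 0.28 without knockout replicate 1. With the mean of all probe sets, over all 6 arrays, Lpin1 minus Lpin2 was 0.71 higher, without overlap (exact permutation p = 0.1, adjusted 0.2). Lpin3, the remaining lipin, was under the limit for dim signal, at 1.85 to 2.46.

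**Figure D2:**
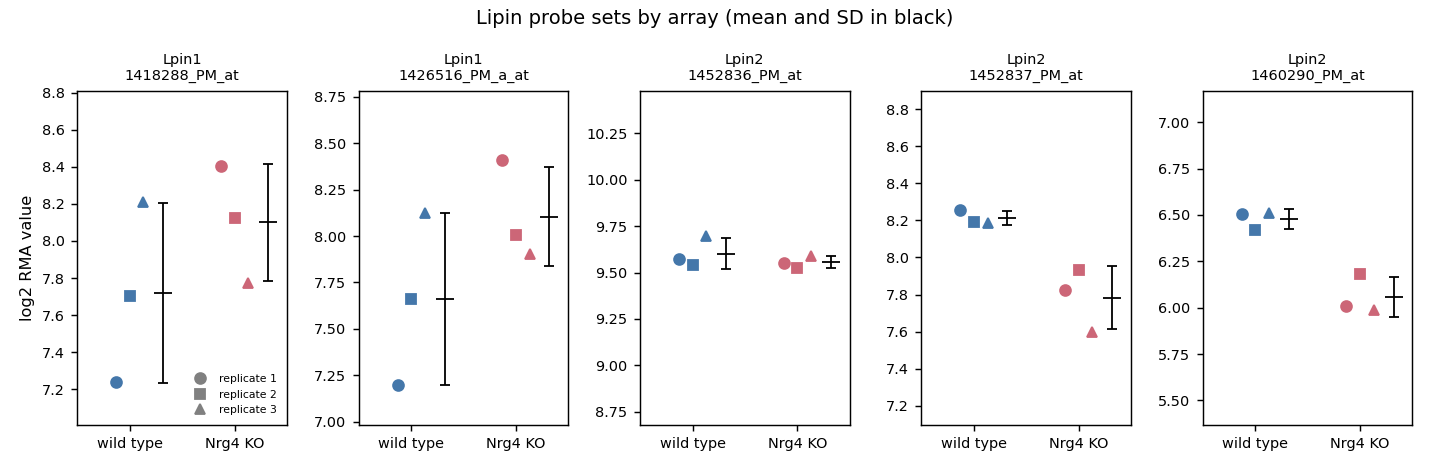
Log2 RMA value (vertical axis, the same span in each panel) of the 2 Lpin1 and 3 Lpin2 probe sets in the 3 wild-type (blue) and 3 Nrg4 knockout (red) arrays, with replicate number by marker and mean and SD in black. The Lpin1 pools are spread over 0.97 log2 units in wild type with the main probe set, 1418288_PM_at, and 1452837_PM_at and 1460290_PM_at of Lpin2 are lower in every knockout array while 1452836_PM_at overlaps.

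The enzymes of the last step had slightly higher means in the knockout, and neither passed. Dgat2, the DGAT that favours newly made fatty acids, read 9.13, 9.14 and 9.0003 in wild type and 9.21, 9.26 and 9.38 in the knockout with its main probe set. The arrays of the genotypes did not overlap, but the gap between them was small, and the change was 0.19 (SE 0.090, 95% interval -0.012 to 0.40, limma adjusted p = 0.536). The second Dgat2 probe set overlapped, at 6.93, 7.10 and 6.86 in wild type and 6.85, 7.26 and 7.29 in the knockout, with a change of 0.17 (SE 0.14).

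Dgat1, a membrane-bound O-acyltransferase unrelated in sequence to Dgat2, read 5.85, 5.75 and 5.68 in wild type and 5.76, 5.90 and 6.03 in the knockout. Its arrays overlapped and its change was 0.14 (SE 0.10, limma adjusted p = 0.688); it was 0.074 without knockout replicate 3 and 0.076 with the mean of its probe sets. The other Dgat1 probe set lay close to the limit at 2.86 to 3.28, with a change of 0.013 that turned negative after centring on array medians or repeated quantile normalization. Dgat1 minus Dgat2 differed by -0.054 between genotypes, with overlapping arrays (exact permutation p = 0.4).

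Mogat1, which acylates monoacylglycerol and belongs to the Dgat2 family, was the dimmest main probe set among the members. It read 3.71, 3.50 and 3.65 in wild type and 4.09, 3.72 and 3.62 in the knockout. Knockout replicate 1 alone stood above the wild-type arrays by a clear gap. The change of 0.19 (SE 0.13, limma adjusted p = 0.679) was 0.048 without that array and 0.28 without knockout replicate 3. Knockout replicate 1 also had the lowest 5' minus 3' control value, -1.31, and the part of RNA integrity was not tested.

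Abhd5, also called CGI-58, activates adipose triglyceride lipase on lipid droplets and so acts on breakdown. Its main probe set read 5.72, 5.49 and 5.76 in wild type and 5.67, 5.67 and 5.62 in the knockout, a change of -0.0044 (SE 0.097, 95% interval -0.23 to 0.22). The second probe set read 5.68, 5.57 and 5.44 in wild type and 5.27, 5.72 and 5.88 in the knockout, with a change of 0.061 (SE 0.15). Its knockout arrays were spread more widely than any wild-type arrays of either probe set. Abhd5 was the only member on the chromosome of Nrg4, over 20 Mb away in the GRCm38.p6 annotation. The lipase that it activates, Pnpla2, was under the limit for dim signal at 2.13 to 2.55.

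**Figure D3:**
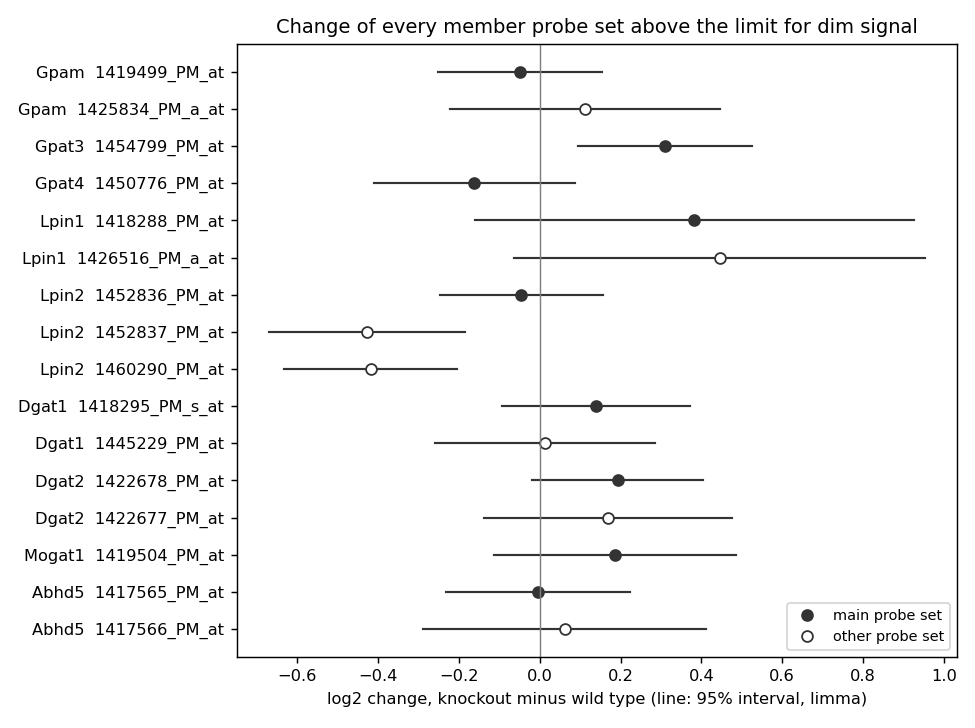
Log2 change, knockout minus wild type (horizontal axis), of the 16 member probe sets above the limit for dim signal, with 95% intervals from limma fitted over 19018 probe sets; filled points are main probe sets and open points the others. The intervals of Gpat3 and of 2 Lpin2 probe sets do not span 0, and these probe sets did not pass after adjustment.

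The other genes of the pathway were taken from 10 lists of 100 genes, of which 81 were tested. None of the 81 passed at a limma adjusted p under 0.05; at an unadjusted p under 0.05, 6 were higher and 3 lower. Genotypes did not overlap for 12 genes with higher values (14.8%) and 7 with lower values (8.64%), beside the 11.7% and 3.92% of all genes tested. Values were higher in the knockout for 50 of the 81 and lower for 31, where 63.4% of all genes tested were higher, and the counts of higher values in single lists are to be read beside that share. The lists below follow the route of fatty acid into and out of triglyceride, and genes named are the 3 of each list with the smallest p.

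Genes of acyl-CoA activation and of glycerol 3-phosphate metabolism stood close to the median of all genes. Of 6 genes of acyl-CoA activation, 4 had a higher value, with a median change of 0.0076. The synthetase Acsl6 stood at -0.21 without overlap, Acsl4 at 0.21 and the acyl-CoA binding protein Acbd3 at 0.15. All 5 tested genes of the list named glycerol 3-phosphate supply had a higher value by main probe set, but the median was 0.033, below that of all genes. The list was not divided into genes that make and genes that use glycerol 3-phosphate, so these values do not measure supply. Gpd2 and Gpd1l, glycerol 3-phosphate dehydrogenases, stood at 0.18 and 0.16, and the glycerol channel Aqp9 at 0.033. For Gpd2, a probe set nearly as bright as the main one (mean 6.38 against 6.39) stood at -0.31, lower in the knockout without overlap. A dimmer Gpd2 probe set, at a mean of 5.06, stood at -0.037, so its direction rested on the choice of probe set.

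The lists of other acyltransferases and of other phosphatases and lipin regulators held single genes with lower values by main probe set. Among 8 other acyltransferases, 5 had a higher value and the median was 0.074. By its main probe set Lpgat1, a lysophospholipid acyltransferase, read 9.34, 9.53 and 9.50 in wild type and 9.29, 9.29 and 8.98 in the knockout. That probe set did not overlap (change -0.27, limma adjusted p = 0.503). Other Lpgat1 probe sets above the limit stood at -0.25, 0.14 and 0.13. Agpat3, which acylates lysophosphatidic acid, was also lower without overlap (-0.15), and Agpat5 stood at 0.096. Among 5 other phosphatases and lipin regulators the median was -0.039. Plpp3, a lipid phosphate phosphatase, stood at -0.081. The subunits of the phosphatase that acts on lipins, Cnep1r1 and Ctdnep1, stood at -0.075 and 0.067.

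Genes that store and break down triglyceride held larger differences, none past the test. Of 11 lipid droplet genes, 9 (beside 63.4% of all genes) had a higher value, and the median was 0.11. Of these, 5 were higher without overlap, beside 11.7% of all genes tested. Plin4, a droplet coat protein, read 5.83, 5.75 and 5.68 in wild type and 6.08, 6.39 and 6.60 in the knockout, 1.52-fold higher (limma adjusted p = 0.218). Cidea, a droplet fusion protein, stood at 0.52 with overlapping genotypes. Its wild-type mean, 2.53, was under the limit for dim signal (2.66), and its knockout arrays read 2.65, 3.63 and 2.89. The coat protein Plin3 stood at 0.24 without overlap. Of 10 genes of triglyceride breakdown, 5 had a higher value. G0s2, the inhibitor of the lipase that Abhd5 activates, read 10.06, 9.93 and 9.88 in wild type and 9.41, 9.73 and 9.48 in the knockout, 1.33-fold lower without overlap (limma adjusted p = 0.314). The carboxylesterase Ces1g stood at 0.31 without overlap and the lysosomal lipase Lipa at 0.21.

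Genes of triglyceride export had the lowest median of the 10 lists, -0.19 over 7 genes, of which 5 had a lower value. Apob, the structural protein of very low density lipoprotein, read 8.40, 8.46 and 8.23 in wild type and 7.13, 7.63 and 6.87 in the knockout. It was 2.23-fold lower, with the smallest p in these lists, and did not pass (limma adjusted p = 0.0778). A single probe set represented it, and the 18S control values, which also differed without overlap, stand beside this value; their part was not tested. Mia2, a cargo receptor in the endoplasmic reticulum, stood at -0.49 with overlapping genotypes. Its mean over the 6 arrays, 2.68, was barely above the limit for dim signal (2.66), and its knockout mean, 2.43, was under it. Mttp, which loads lipid onto Apob, stood at -0.19, also with overlapping genotypes.

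Genes of phospholipid synthesis were near the background, with a median of 0.036 over 16 genes and 10 higher values. Chka, choline kinase, stood at 0.45, Pgs1, which makes phosphatidylglycerol phosphate, at 0.35 and the phosphatidylserine synthase Ptdss2 at 0.16, the last without overlap. Of 5 diacylglycerol kinases, which return diacylglycerol to phosphatidic acid, 2 had a higher value; Dgkz stood at 0.22 without overlap, Dgkq at -0.39 and Dgkh at -0.090. Of 8 transcriptional regulators 6 had a higher value, with a median of 0.073. Ppara stood at 0.34 and Insig2, a brake on SREBP processing, at 0.26, both without overlap by the main probe set. Pparg read 5.07, 5.09 and 4.53 in wild type and 5.02, 5.56 and 5.65 in the knockout (0.51, with overlapping genotypes). Pparg is also expressed by macrophages and fat cells. Macrophage markers had higher knockout values for 10 of 11 genes tested, at a median change of 0.44, beside the 63.4% of all genes. The fat cell markers Adipoq and Lep lay at 2.21 to 3.19 and 2.54 to 2.77, around the limit for dim signal. Of the 3 fat cell markers tested, Fabp4, which macrophages also express, read 6.04 to 6.63 in wild type and 6.39 to 6.84 in the knockout (0.39, limma adjusted p = 0.526), Lipe stood at 0.043 and Retn at -0.050. The part of other cells in the pathway values was not tested.

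The values of these genes rested on single probe sets, as for Lpin2. Of the 30 named pathway genes, 15 had several probe sets above the limit, and for 11 of them these gave both directions. Ppara stood at 0.34 by its main probe set and at -0.35 and -0.13 by the others. Lpgat1 stood at -0.27 and -0.25 by 2 probe sets and at 0.14 and 0.13 by 2 more. Lipa stood at 0.21 and 0.23 by 2 probe sets and at -0.34 by the remaining one. A direction given for these genes therefore belongs to the probe set.

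**Figure D4:**
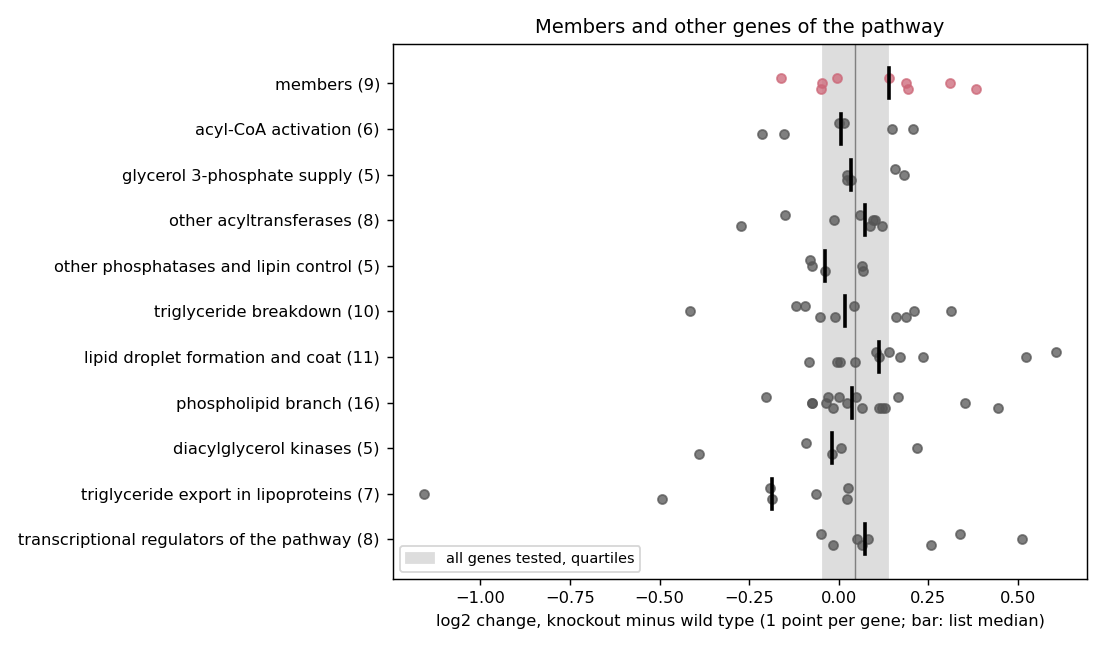
Log2 change, knockout minus wild type (horizontal axis), of each tested gene of the members (red) and of 10 other pathway lists (grey), with the number of genes tested in parentheses, list medians as black bars and the quartiles of all genes tested, -0.044 to 0.14, as a grey band. Most points lie within or near the band; Apob, at -1.16, lies farthest from it.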

How the data were processed

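Liver RNA was labelled with a 3' in vitro transcription kit for Affymetrix MG-430 PM arrays, per the labels. The authors deposited log2 values, made with the tools affy, RMA and limma per the submitters' processing notes (versions not given there). RMA's quantile step would shrink any difference shared by most genes.

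Of 45141 probe sets, 104 were controls; 28898 carried 1 symbol, 551 several, 15588 none here. Symbols were updated by gene number through RefSeq (GRCm38.p6; 28689 matched). Genes with a mean under log2 2.66, the 40th percentile of probe sets, were left out as dim. Genotypes were compared with limma 3.58.1 (R 4.3.3) over 12466 genes, Benjamini-Hochberg threshold 0.05. The fit was also run on simulated data with known changes and independent noise. That run cannot test the threshold under effects shared by the genes of an array. Differences within arrays used exact permutation tests. Figures used matplotlib 3.10.9 in Python 3.11.15. Arrays correlated at 0.991 to 0.996; their number limits the precision.

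Alternatives covered normalization (quantile again, median centring), filters, limma settings (trend, robust prior, array weights), averaging a gene's probe sets, omitting arrays, blocking on replicate number, and adjusted p under 0.10. The fit of every probe set was chosen after seeing the data. Members and lists were chosen with earlier results of these data known. Named genes are all members and the 3 of smallest p in each pathway list.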

Additional observations from a re-analysis of the deposited data

How the results depend on the processing

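No member passed at an adjusted p under 0.05 in any of the 15 refits, nor under 0.10, and 128 of 135 member values kept their direction. Gpat3, Gpat4, Lpin1, Dgat1, Dgat2 and Mogat1 kept theirs in every refit; Gpat3 ranged from 0.27 to 0.38 with limma adjusted p-values of 0.109 to 0.805. Abhd5, near 0, turned to 0.054 with array weights and 0.028 when its probe sets were averaged, and ranged from -0.088 to 0.048 when single arrays were left out. Gpam turned to 0.031 when averaged. Lpin2 ranged from -0.078 to 0.00015 when single arrays were left out, and stood at -0.30 when averaged. The count of all genes called, 5, was 8 after repeated quantile normalization, 3 with the 60th percentile filter, 29 with a variance trend, 50 with array weights, 3 with averaged probe sets, 30 at adjusted p under 0.10, and 1 to 17 without single arrays, the highest without knockout replicate 1.

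With the replicate number as a block 2 genes were called and no member. The labels do not say that the numbers pair the pools, so the main fit did not pair them. Deviations of same-numbered arrays correlated at -0.15, 0.033 and -0.0090, which cannot exclude pairing. Of the additional probe sets, both lower ones of Lpin2 kept their direction in 10 of 10 refits (-0.50 to -0.33 and -0.48 to -0.38). The dim Dgat1 probe set turned to -0.0031 after repeated quantile normalization and -0.00014 after centring, and ranged from -0.087 to 0.12 without single arrays; the second probe sets of Abhd5 and Gpam ranged from -0.067 to 0.24 and from -0.056 to 0.21. The cause of these turns was not tested. For the 4 pairs no alternative turned a difference; with 3 against 2 arrays the exact test cannot go below 0.2.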
